A study of Mus musculus with 22 samples.

Results

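Co-stimulatory and checkpoint molecules were followed in macrophages as 10 genes, Cd40, Cd80, Cd86, Cd274, Pdcd1lg2, Icosl, Cd83, Cd200r1, Havcr2 and Slamf1, chosen by name and found on the arrays through the RefSeq accession of each probe. They were measured by 11 probes, because Cd80 had a pair, and all 10 were among the 22383 genes tested. Bone marrow came from C57BL/6 mice (C57BL/6J in the study's methods) labelled male and aged 10 to 14 weeks. It was grown into bone marrow-derived macrophages (BMDM) with M-CSF. The mice were wild-type (wt), constitutive knockouts of the p38-activated kinase MK2 (MK2-/-), or double knockouts that lack MK2 and the related kinase MK3 (MK2/3-/-). Cells received 100 ng/ml lipopolysaccharide (LPS), the bacterial cell wall component sensed by TLR4, or medium alone, and RNA was taken after 360 min. The 22 one-colour arrays fell into wt medium (n = 4), wt LPS (n = 3), MK2-/- medium (n = 4), MK2-/- LPS (n = 4), MK2/3-/- medium (n = 3) and MK2/3-/- LPS (n = 4). All groups shared the strain, the M-CSF culture and a change to M-CSF-free medium before treatment, and because the kinases were absent throughout the animals' life, the macrophages had also developed without them. Since all arrays of a genotype lay on the same slide, genotype and slide cannot be told apart when genotypes are compared directly. The arrays with and without LPS of any genotype shared a slide. All wt arrays were scanned on a different day from the knockout arrays, so knockout against wt cannot be told apart from scan day either.

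T cells answer an antigen only when the presenting cell also supplies a second signal. CD80 and CD86 give it by binding CD28, and they can instead engage the inhibitory receptor CTLA-4; ICOS ligand (gene Icosl) binds ICOS, and CD40 is the receptor through which activated T cells, by CD40 ligand, license macrophages and dendritic cells. PD-L1 (Cd274) and PD-L2 (Pdcd1lg2) restrain T cells through PD-1. CD83 is a surface protein of mature antigen-presenting cells, SLAMF1 a self-binding receptor shared by lymphocytes and myeloid cells, and CD200R1 and TIM-3 (Havcr2) are inhibitory receptors on the myeloid cell itself.

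The arrays were first checked against their labels. The Mapkapk2 probe, reporting the MK2 gene, had a mean log2 signal of 14.96 in wt LPS, 11.61 in MK2-/- LPS and 11.01 in MK2/3-/- LPS, and of 11.92, 8.88 and 8.44 in medium, with no overlap between wt and knockout arrays of the same treatment. Where the probes lie relative to the deleted parts was not analysed here. The Mapkapk3 probe, reporting the MK3 gene, had means of 12.12, 12.36 and 7.99 with LPS and of 13.12, 12.87 and 11.17 in medium. All 7 macrophage markers tested were well above the local background on every array, and Cd68, the other marker listed, was not among the tested genes. On the MK2-/- replicate 3 arrays, LPS and medium, the Y-linked genes Ddx3y and Eif2s3y lay far below the other 20, although labelled male. Ddx3y read 1.99 to 2.01 there against 10.07 to 11.26, and Eif2s3y 2.02 to 3.30 against 11.09 to 12.53. Both Uty probes were lower too, while Kdm5d was dim throughout. The probes of Xist, the other sex-linked gene checked, read 7.66 and 8.18 there with LPS and 7.77 and 9.12 in medium. On the other arrays the first Xist probe lay between 1.99 and 5.78. The second lay between 1.99 and 2.04, except at 5.36 on MK2-/- medium replicate 4. Donor sex was not tested otherwise. The wt medium array of replicate 4 had high Cd40, Cd274 and Slamf1, and over 1161 other genes called at least 4-fold higher with LPS in MK2-/- its median excess over its group was 0.32 on the log2 scale, against -0.17 to -0.11 on the other wt medium arrays. Results that rest on these arrays are given with and without them.

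The LPS response asks which of these molecules a macrophage raises or lowers after sensing bacteria. In each genotype 9 of the 10 genes changed, 6 upward (Cd40, Cd274, Slamf1, Cd83, Cd86 and Icosl) and 3 downward (Cd80 by its brighter probe, Cd200r1 and Havcr2), and Pdcd1lg2 alone did not pass the test. Slamf1 entered the test through its LPS arrays, so its call carries no weight in the count of 9. Changes were tested with limma on quantile-normalised log2 signals, and calling a gene took an adjusted p (Benjamini-Hochberg) under 0.05 across all 22383 genes. Of all genes tested, 41.8% were called in wt (18.6% higher and 23.2% lower with LPS), 44.4% in MK2-/- (17.7% and 26.7%) and 47.8% in MK2/3-/- (20.3% and 27.5%), so that a large share of the transcriptome moved. The median response of the 10 genes was 2.33 in wt, 3.00 in MK2-/- and 3.34 in MK2/3-/- BMDM on the log2 scale, with Slamf1 at its bound where it has one as well, against -0.04, 0.00 and 0.02 over all genes. In these bulk samples, fewer cells carrying a transcript and less of it per cell cannot be told apart. Scaling each array on its 75th percentile instead moved the median of all genes by 0.32, 0.27 and 0.27, and the share of calls that were upward from 44.5% to 59.6% in wt, from 39.9% to 52.1% in MK2-/- and from 42.4% to 54% in MK2/3-/-, but left 9 genes called in each genotype.

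**Figure D1:**
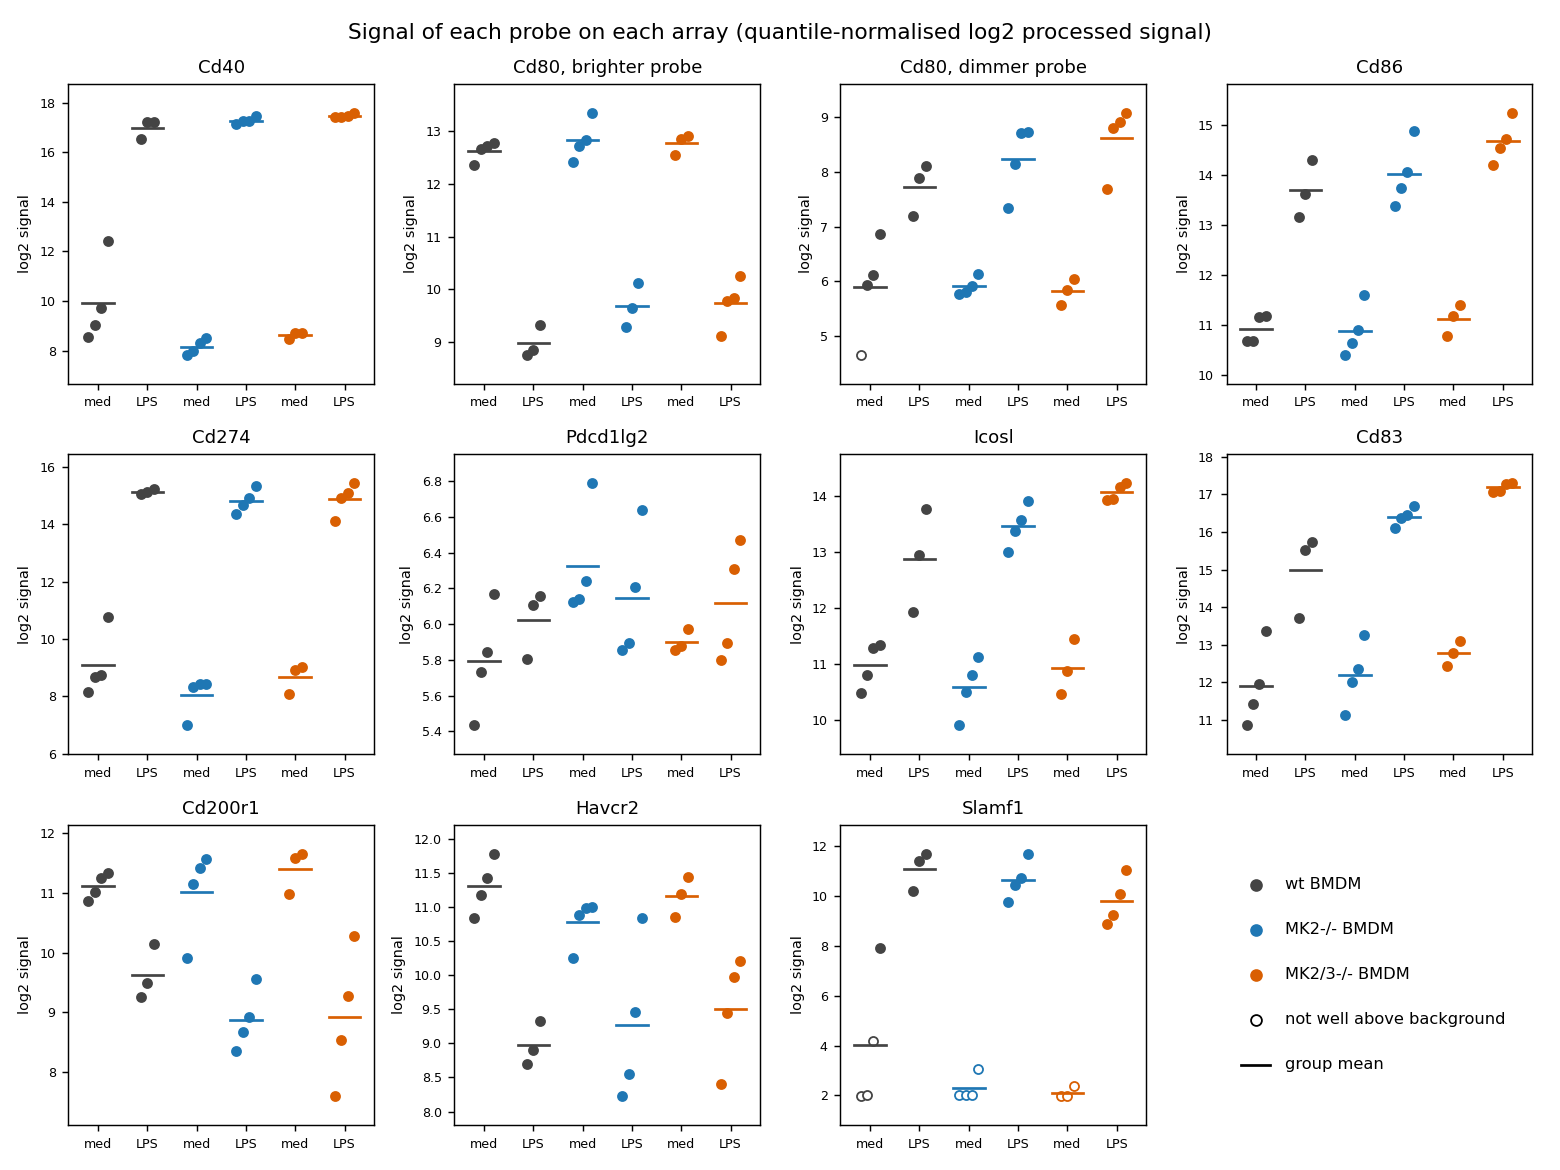
Quantile-normalised log2 signal of each of the 11 probes (y axis) on every array of the 6 groups (x axis). A dot is an array, filled where the probe was well above the local background and open where it was not, and a bar is the group mean. Cd40, Cd274 and Slamf1 separate widely between medium and LPS, Pdcd1lg2 lies between 5.43 and 6.79 throughout, and the wt medium array of replicate 4 is the high one for Cd40 (12.43), Cd274 (10.75) and Slamf1 (7.93).

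Cd80 (NM_009855), a ligand of CD28 and CTLA-4, gave opposite answers on its 2 probes, which carry the same accession. On the brighter probe the log2 signals were 12.66, 12.72, 12.79 and 12.37 in wt medium and 8.85, 9.33 and 8.76 in wt LPS, 13.35, 12.83, 12.73 and 12.43 against 9.65, 10.13 and 9.29 in MK2-/- (the third LPS spot failed the scanner's outlier filter and was missing), and 12.86, 12.91 and 12.55 against 9.83, 10.26, 9.12 and 9.77 in MK2/3-/-. Every LPS array lay below every medium array. The signal fell by 3.65 on the log2 scale in wt (12.6-fold, adjusted p = 8.35e-09), by 3.15 in MK2-/- (8.86-fold, 2.19e-08) and by 3.03 in MK2/3-/- (8.15-fold, 3.95e-08). On the dimmer probe, well above background on 21 of 22 arrays, the signals were 6.88, 6.11, 4.66 and 5.93 in wt medium and 8.12, 7.20 and 7.88 in wt LPS, 6.13, 5.93, 5.78 and 5.81 against 8.73, 8.72, 7.35 and 8.15 in MK2-/-, and 6.05, 5.84 and 5.58 against 8.80, 9.09, 7.70 and 8.91 in MK2/3-/-. Here every LPS array lay above every medium array of its genotype. The rises were 1.84 (3.57-fold, adjusted p = 0.00212), 2.32 (5.01-fold, 8.26e-05) and 2.80 (6.97-fold, 2.39e-05). The direction of Cd80 with LPS therefore rests on which probe stands for the gene, and what part of the transcript each one reads was not analysed here.

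Cd86 (NM_019388), the other CD28 and CTLA-4 ligand, rose in all 3 genotypes. Its signals were 10.69, 11.18, 10.68 and 11.15 in wt medium and 13.16, 13.62 and 14.30 in wt LPS, 10.90, 10.40, 10.65 and 11.60 against 13.74, 14.06, 13.37 and 14.88 in MK2-/-, and 11.39, 10.77 and 11.19 against 14.53, 14.73, 14.21 and 15.25 in MK2/3-/-. All LPS arrays were above all medium arrays, and under LPS the group means were in the order wt, MK2-/-, MK2/3-/- with overlapping arrays between neighbours. The responses were 2.77 (6.81-fold, adjusted p = 4.5e-06), 3.13 (8.73-fold, 2.1e-07) and 3.56 (11.8-fold, 1.09e-07) on the log2 scale.

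Icosl (NM_015790), the ligand that sustains effector and helper T cells through ICOS, showed a smaller rise in the same direction. Its signals were 10.80, 10.49, 11.29 and 11.34 in wt medium and 11.94, 12.94 and 13.76 in wt LPS, 10.81, 9.91, 10.50 and 11.13 against 13.56, 12.99, 13.36 and 13.90 in MK2-/-, and 10.88, 10.48 and 11.45 against 14.22, 13.92, 13.94 and 14.15 in MK2/3-/-. The medium arrays of the genotypes overlapped, the wt LPS arrays were the most spread (SD 0.91, n = 3), and the MK2/3-/- LPS arrays the least among the LPS groups (SD 0.15, n = 4). The responses were 1.90 (3.73-fold, adjusted p = 0.000362), 2.87 (7.29-fold, 9.65e-07) and 3.12 (8.69-fold, 8.67e-07).

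Cd274 and Pdcd1lg2, the genes of the PD-1 ligands, are neighbours whose start sites lie 43481 bases apart on chromosome 19, and they differed in their LPS response. Their promoter windows, from 250 bases before the start site to 50 after it, are shown because the genes sit side by side with unlike responses (RefSeq, GRCm38.p6, plus strand, chr19:29367188-29367487 for Cd274 and chr19:29410669-29410968 for Pdcd1lg2). Capitals mark a match to the NF-kB consensus, which was found in Pdcd1lg2 from -244 to -235 and not in this Cd274 window.
Cd274: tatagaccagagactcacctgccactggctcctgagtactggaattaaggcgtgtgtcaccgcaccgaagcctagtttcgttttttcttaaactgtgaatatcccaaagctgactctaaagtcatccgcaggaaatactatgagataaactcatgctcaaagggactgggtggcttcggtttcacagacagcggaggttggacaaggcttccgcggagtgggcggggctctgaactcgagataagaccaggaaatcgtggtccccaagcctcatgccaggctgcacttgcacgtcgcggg
Pdcd1lg2: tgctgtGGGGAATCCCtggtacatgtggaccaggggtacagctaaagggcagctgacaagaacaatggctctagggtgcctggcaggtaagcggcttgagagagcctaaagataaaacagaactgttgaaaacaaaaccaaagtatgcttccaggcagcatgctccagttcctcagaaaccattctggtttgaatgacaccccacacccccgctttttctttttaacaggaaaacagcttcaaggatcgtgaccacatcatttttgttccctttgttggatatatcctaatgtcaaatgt
Of 32851 mouse promoter windows of this length, 8.46% held that consensus on either strand. Among the 6 genes of the set with a RefSeq promoter, Icosl also held it, Cd80 and Havcr2 held the AP-1 motif TGANTCA (7.81% of all windows), and none held the GAS motif TTCNNNGAA (8.3%) or the interferon-stimulated response element (3.44%). A match describes letters in a window and not a bound site.

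Cd274 (NM_021893) was among the most induced genes of the set. The signals were 8.16, 8.75, 8.66 and 10.75 in wt medium and 15.06, 15.23 and 15.12 in wt LPS, 8.42, 6.99, 8.44 and 8.34 against 14.68, 15.33, 14.36 and 14.92 in MK2-/-, and 8.92, 9.01 and 8.07 against 15.10, 15.43, 14.11 and 14.93 in MK2/3-/-. The LPS arrays of the genotypes overlapped and stood well clear of all medium arrays. The rise was 66.4-fold in wt (log2 6.05, adjusted p = 1.64e-08), 110-fold in MK2-/- (log2 6.78, 6.55e-10) and 74.8-fold in MK2/3-/- (log2 6.23, 6.03e-09). Without wt medium replicate 4 the wt rise was 97.7-fold.

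Pdcd1lg2 (NM_021396) stayed dim but measurable on all 22 arrays. Its signals were 5.73, 5.43, 5.84 and 6.17 in wt medium and 6.16, 6.11 and 5.81 in wt LPS, 6.14, 6.24, 6.79 and 6.12 against 6.21, 6.64, 5.89 and 5.86 in MK2-/-, and 5.97, 5.88 and 5.85 against 5.80, 6.31, 5.89 and 6.47 in MK2/3-/-. LPS and medium arrays overlapped in every genotype. The differences were 0.23 in wt (95% interval -0.26 to 0.71, adjusted p = 0.465), -0.18 in MK2-/- (-0.62 to 0.27, 0.55) and 0.22 in MK2/3-/- (-0.27 to 0.70, 0.476).

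Cd40 (NM_011611), the receptor for CD40 ligand, was raised by LPS in all genotypes. Its signals were 8.53, 9.02, 9.71 and 12.43 in wt medium and 16.54, 17.21 and 17.23 in wt LPS, 7.83, 8.31, 7.97 and 8.49 against 17.15, 17.26, 17.24 and 17.46 in MK2-/-, and 8.47, 8.72 and 8.72 against 17.59, 17.43, 17.43 and 17.47 in MK2/3-/-. The LPS arrays were close together and overlapped between wt and MK2-/-, whereas the medium arrays spread over several log2 units in wt and little in the knockouts. The rise was 135-fold in wt (log2 7.07, SE 0.56, adjusted p = 1.25e-08), 559-fold in MK2-/- (log2 9.13, SE 0.52, 9.89e-11) and 460-fold in MK2/3-/- (log2 8.85, SE 0.56, 4.41e-10). Without wt medium replicate 4 the wt value was 7.91 (240-fold, adjusted p = 1.82e-12).

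Cd83 (NM_009856), the maturation marker, was already expressed in medium and rose further. Its signals were 10.86, 13.37, 11.43 and 11.96 in wt medium and 13.70, 15.53 and 15.74 in wt LPS, 12.01, 13.26, 11.14 and 12.35 against 16.38, 16.46, 16.11 and 16.68 in MK2-/-, and 13.10, 12.79 and 12.45 against 17.30, 17.29, 17.07 and 17.10 in MK2/3-/-. Every LPS array lay above every medium array, with a narrow margin in wt. The responses were 3.09 (8.49-fold, adjusted p = 0.000119), 4.22 (18.6-fold, 8.15e-07) and 4.41 (21.3-fold, 1.22e-06). Without wt LPS replicate 1 the wt response was 3.73 (13.3-fold, adjusted p = 2.16e-05).

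Slamf1 (NM_013730) went from background to a clear signal. With LPS the log2 signals were 11.68, 11.41 and 10.21 in wt, 9.78, 11.71, 10.43 and 10.74 in MK2-/-, and 10.10, 11.04, 9.22 and 8.89 in MK2/3-/-, all well above background. In medium none of the 7 knockout arrays was (1.99 to 3.07), and of the wt arrays at 1.99, 2.01, 4.18 and 7.93 only replicate 4 was. A fold against a group without measurable signal is a lower bound, computed against the lowest signals that passed the background test on those arrays, or the probe's own where higher. It was at least 129-fold higher with LPS in MK2-/- (adjusted p = 3.06e-07) and at least 117-fold in MK2/3-/- (2.35e-06). The fitted rise in wt was 7.07 on the log2 scale (adjusted p = 1.09e-05) with 1 of 4 medium arrays measurable. Without wt medium replicate 4 the rise in wt was at least 151-fold (adjusted p = 1.29e-08).

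The inhibitory receptors of the myeloid cell, Cd200r1 (NM_021325) and Havcr2 (NM_134250), fell with LPS. Cd200r1 signals were 11.24, 10.87, 11.02 and 11.34 in wt medium and 10.15, 9.26 and 9.48 in wt LPS, 11.42, 9.91, 11.57 and 11.15 against 8.66, 9.56, 8.35 and 8.93 in MK2-/-, and 11.58, 11.66 and 10.98 against 8.53, 9.28, 7.59 and 10.28 in MK2/3-/-. The LPS arrays lay below the medium arrays of their genotype without overlap. Cd200r1 fell by 1.49 in wt (2.81-fold, adjusted p = 0.0193), by 2.14 in MK2-/- (4.4-fold, 0.000635) and by 2.49 in MK2/3-/- (5.6-fold, 0.000297). The wt call ended without wt LPS replicate 2 (-1.30, adjusted p = 0.0834) or replicate 3 (-1.42, 0.0622).

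Havcr2 signals were 11.79, 11.43, 10.84 and 11.19 in wt medium and 8.91, 8.70 and 9.34 in wt LPS, 10.88, 10.25, 10.99 and 11.00 against 10.85, 9.46, 8.23 and 8.55 in MK2-/-, and 10.86, 11.19 and 11.44 against 10.21, 9.44, 8.41 and 9.98 in MK2/3-/-. LPS and medium arrays overlapped in MK2-/-, through 1 LPS array at 10.85, and were apart in the other genotypes. Havcr2 fell by 2.33 in wt (5.02-fold, adjusted p = 0.00078), by 1.51 in MK2-/- (2.85-fold, 0.0102) and by 1.65 in MK2/3-/- (3.14-fold, 0.00877). Without the MK2-/- arrays of low Y-linked signal the MK2-/- value was -1.09 (adjusted p = 0.0899) and no longer called. After adjustment the methods' t-test called neither MK2-/- (adjusted p = 0.101) nor MK2/3-/- (0.0528).

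**Figure D2:**
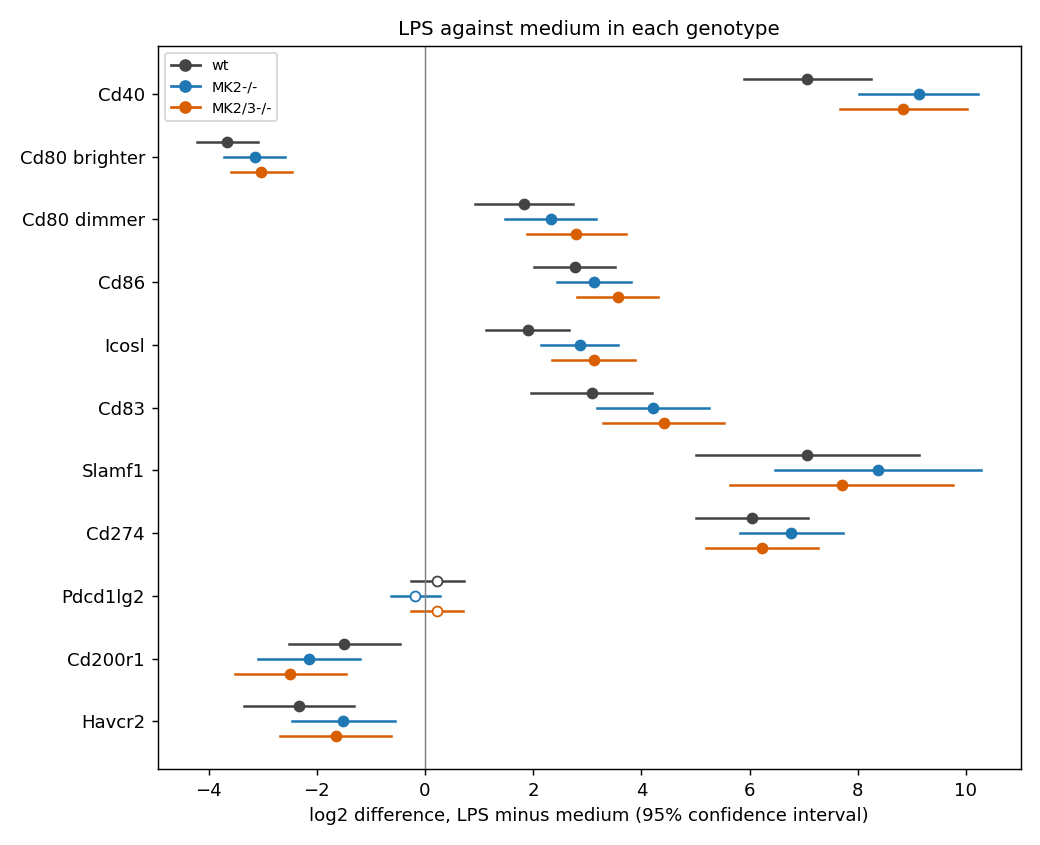
Difference between LPS and medium (x axis, log2) for the 11 probes in wt, MK2-/- and MK2/3-/- BMDM, with 95% confidence intervals from the limma fit. Filled points passed the test. Called rises run from the dimmer Cd80 probe at 1.84 in wt to Cd40 at 9.13 in MK2-/-, the Cd80 probes point in opposite directions, and the Pdcd1lg2 intervals span 0. For Slamf1 in the knockouts the points are fitted values and no bound.

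Comparing genotypes under LPS asks whether loss of the kinases changed what the activated macrophage carried. In MK2/3-/- LPS against wt LPS, Cd83, Icosl and Cd80 were higher, 3 of 10 genes where 23.7% of all genes were called, and none was lower. Cd83 was higher by 2.20 (SE 0.53, 4.58-fold, adjusted p = 0.00649), with every MK2/3-/- array above every wt array. Icosl was higher by 1.18 (SE 0.37, 2.26-fold, 0.0264), and its arrays did not overlap either. The brighter Cd80 probe was higher by 0.77 (1.7-fold, 0.0467) with overlapping arrays, and the dimmer one by 0.89 without passing (adjusted p = 0.141). Cd86 missed the threshold at 0.99 (adjusted p = 0.0509). These calls leaned on wt LPS replicate 1, which had the lowest Cd83, Icosl and Cd86 of its group. Without it none of the 10 passed: Cd83 was at 1.55 (adjusted p = 0.0542), Icosl at 0.71 (0.187) and Cd80 at 0.70 (0.139). Leaving out single arrays ended the Cd83 call 1 time in 22, the Icosl call 3 times and the Cd80 call 15 times. Without the MK2-/- arrays of low Y-linked signal, which enter through the shared spread, Cd80 lost its call (adjusted p = 0.0535) and Cd86 gained one (0.0483).

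MK2-/- LPS against wt LPS gave no call among the 10 genes by limma, with 2 at an unadjusted p under 0.05, where 11.6% of all genes were called. The methods' t-test gave 0 before and after adjustment. Cd83 differed by 1.42 (adjusted p = 0.0864), or by 0.77 (0.394) without wt LPS replicate 1, and Cd80 by 0.71 (0.111). MK2/3-/- LPS against MK2-/- LPS also gave none by limma, adjusted or unadjusted, at a background of 13.8%, whereas the methods' t-test called 3 before adjustment and 1 after it. Cd83 lay between 13.70 and 15.74 in wt, between 16.11 and 16.68 in MK2-/- and between 17.07 and 17.30 in MK2/3-/-. The arrays of the 3 genotypes thus formed separate ranges. The step between the knockouts was 0.78 (adjusted p = 0.323 by limma, with a spread shared by all groups). The SD was 1.12 in wt LPS, 0.24 in MK2-/- LPS and 0.12 in MK2/3-/- LPS. The methods' t-test called this step after adjustment (0.0409), as did limma with the compared groups alone (0.0466). The medians over the 10 genes were 0.29, 0.51 and 0.14 for the 3 comparisons, against -0.04, -0.03 and -0.07 over all genes. Scaling on the 75th percentile moved the median of all genes by 0.20 in MK2/3-/- against wt, and the share of upward calls from 38.8% to 63%, from 39.7% to 58.7% and from 56.1% to 72.6% in MK2-/- against wt, MK2/3-/- against wt and MK2/3-/- against MK2-/-, respectively. On that scale Pdcd1lg2 was called higher in MK2/3-/- against wt (0.83, adjusted p = 0.0192), where the quantile-normalised difference was 0.10 (0.803).

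**Figure D3:**
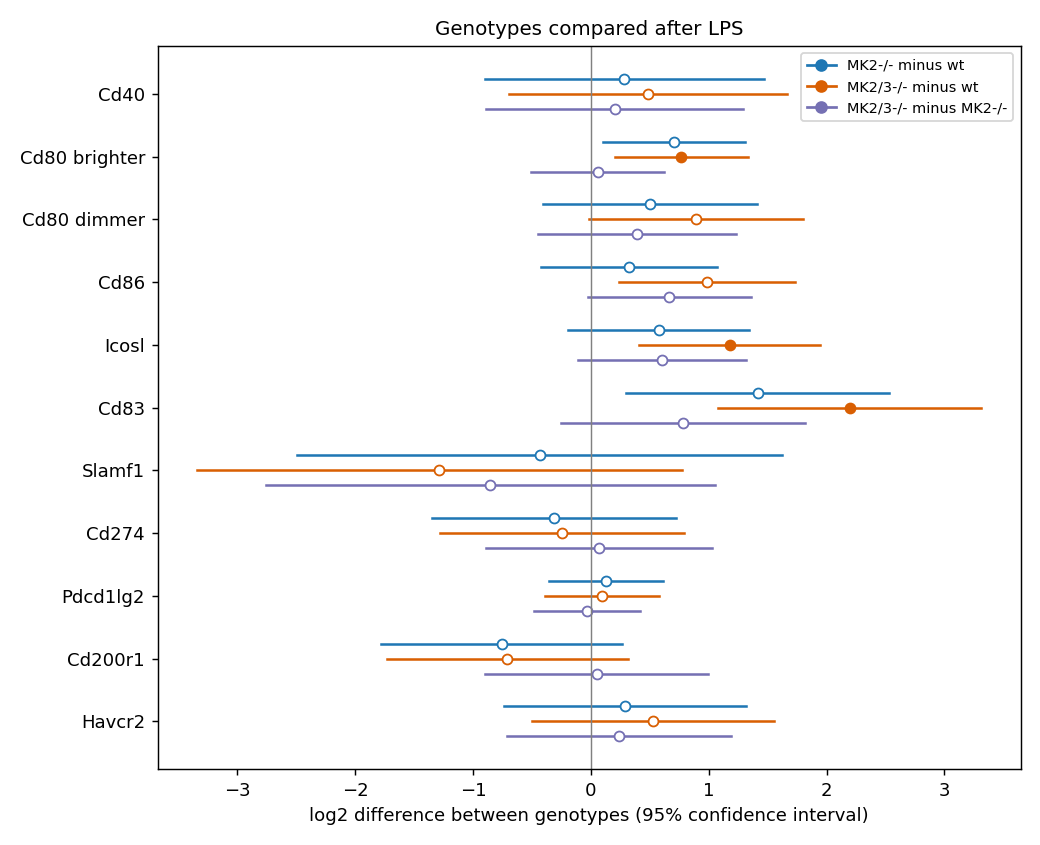
Differences between genotypes under LPS (x axis, log2) for the 11 probes, with 95% confidence intervals from the limma fit and filled points where the test was passed. MK2/3-/- against wt holds the 3 calls, Cd83 at 2.20, Icosl at 1.18 and the brighter Cd80 probe at 0.77.

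Markers of other cell types were read beside these genotype differences, foremost those of dendritic cells, which carry many of the same co-stimulatory molecules. The summed linear signal of the 8 markers ran from 7530 to 16300 in wt LPS, from 13600 to 34100 in MK2-/- LPS and from 15900 to 40500 in MK2/3-/- LPS, and in medium from 2410 to 6920, 2990 to 7670 and 3960 to 12400. In MK2/3-/- against wt under LPS, 3 of the 8 dendritic markers were called higher and none lower, where 23.7% of all genes were called, and in MK2-/- against wt none of the 8 was called (background 11.6%). In MK2/3-/- against MK2-/- under LPS, 4 of the 8 were called higher and none lower (background 13.8%). The 3 called against wt were Batf3 (1.41 on the log2 scale), Clec9a (2.97, with 1 of 3 wt arrays measurable) and Xcr1 (at least 3.99-fold higher). Ccr7, the brightest marker of the sum under LPS (mean log2 12.6 in wt, 14.0 in MK2-/- and 14.0 in MK2/3-/-), differed by 1.36 (adjusted p = 0.124). Its means in medium were 8.1, 7.5 and 8.5, below those of Itgax (11.4, 11.8 and 12.7). The sum thus largely follows Ccr7, which was higher with LPS, in the LPS groups and Itgax in medium. Batf3, Clec9a and Xcr1 had means of only 8.7, 6.9 and 5.8 in MK2/3-/- LPS. Of the 8 markers, 4 were well above background on all 22 arrays. Xcr1, a marker of cross-presenting dendritic cells, was well above background on the 4 MK2/3-/- LPS arrays and on no other array. It therefore entered the test through that group alone, and a call of it carries no weight in the counts of 3 and 4. The macrophage markers summed to between 466000 and 511000 in wt LPS and between 492000 and 594000 in MK2/3-/- LPS, with no marker called. Of the other marker lists, 2 of 6 B cell, 1 of 4 T cell, 1 of 5 NK cell and 1 of 4 mast cell and basophil markers were higher and 1 of 6 neutrophil markers was lower in MK2/3-/- than in wt under LPS. Against MK2-/- under LPS, 3 of 6 B cell, 2 of 4 T cell and 2 of 4 mast cell and basophil markers were higher in MK2/3-/-. The same held for 1 of 5 NK cell and 1 of 6 neutrophil markers, and none was lower. In MK2-/- against wt under LPS, 1 of 6 B cell and 2 of 4 mast cell and basophil markers were lower. The part of other cells in the Cd83, Icosl and Cd80 differences was not tested.

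In medium, which gives the level before stimulation, Cd40 was lower in MK2-/- than in wt by 1.77 on the log2 scale (SE 0.52, 3.41-fold, adjusted p = 0.0425), the single call among 10 genes where 8.57% of all genes were called. All 4 MK2-/- arrays (7.83 to 8.49) lay below the wt arrays (8.53 to 12.43). Without wt medium replicate 4 the difference was -0.94 (1.91-fold, adjusted p = 0.0354), and without the MK2-/- arrays of low Y-linked signal it was -1.71 (0.0898). The call was lost in 11 of 22 fits that left out a single array (adjusted p up to 0.0948), with the compared groups alone (0.175) and with the methods' t-test (0.0918 before and 0.268 after adjustment). MK2/3-/- against wt and MK2/3-/- against MK2-/- gave no call by limma (1 and 0 at an unadjusted p under 0.05), at backgrounds of 1.95% and 2.82%, and none by the methods' t-test. Slamf1 in medium was at least 1.3-fold higher in wt than in MK2-/- (adjusted p = 0.232) and at least 2.12-fold higher than in MK2/3-/- (0.329), both resting on 1 wt array and neither called. With 75th percentile scaling the share of upward calls among all genes moved from 62.8% to 84.1%, from 71.6% to 90.4% and from 70.7% to 90.1% in the 3 comparisons, the median of all genes moved by 0.13 in MK2/3-/- against wt, and Pdcd1lg2 was then called higher both for MK2-/- (1.17, adjusted p = 0.00206) and for MK2/3-/- (0.90, 0.0209), each against wt.

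Whether the LPS response itself differed between genotypes was tested as an interaction, in which a constant offset of a slide cancels. No gene of the set was called in any of the 3 tests by limma. The background was 0% for MK2-/- minus wt, with 1633 of all genes at an unadjusted p under 0.05, 0.652% for MK2/3-/- minus wt and 0.0536% for MK2/3-/- minus MK2-/-. At an unadjusted p under 0.05 the set had 1, 2 and 0 genes. The Cd40 response was larger by 2.06 in MK2-/- than in wt (95% interval 0.45 to 3.67, adjusted p = 0.559) and by 1.77 in MK2/3-/- (0.399), and without wt medium replicate 4 these values were 1.22 and 0.94. The Icosl response was larger by 1.22 in MK2/3-/- than in wt (0.13 to 2.31, adjusted p = 0.351), and that of Cd83 by 1.13 in MK2-/- and 1.32 in MK2/3-/- (0.782 and 0.561). Without wt LPS replicate 1 these Cd83 values were 0.49 and 0.68. The intervals are wide, so a similar response is not shown.

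Related molecules were described from lists of the same pathways. Of 15 other co-stimulatory and checkpoint ligands tested, 10 rose and 2 fell with LPS in wt. In MK2-/- 10 rose and 4 fell, and in MK2/3-/- 10 rose and 3 fell. The median differences were 2.16, 2.65 and 2.89 (2.16, 2.23 and 2.89 with genes at their bound). Over all genes 18.6% were called higher and 23.2% lower in wt, 17.7% and 26.7% in MK2-/-, and 20.3% and 27.5% in MK2/3-/-. Tnfsf4 (OX40 ligand) rose by 6.81 in wt (adjusted p = 2.3e-07), with 2 of 4 medium arrays measurable. It was at least 109-fold higher with LPS in MK2-/- and at least 260-fold in MK2/3-/-. In all these lists a gene measurable on fewer than 3 medium arrays, as Tnfsf4 here, entered the test through its LPS arrays. The rises of such a gene carry no weight in the counts. Tnfsf9 (4-1BB ligand) rose by 5.82 (1e-09) and Cd200, the ligand of CD200R1, by 5.59 (3.48e-06) in wt, while Cd200r1 itself fell. Vsir (the checkpoint protein VISTA) fell by 2.96 (2.26e-07) and Cd24a by 2.63 (0.0118). Under LPS, in MK2/3-/- against wt, Vsir (0.95, 0.0278) and Tnfsf15 (1.34, 0.0284) were higher, where 23.7% of all genes were called. Cd276 (-1.90, 0.00103) and Tnfsf14 (-0.97, 0.0151) were lower there. Tnfsf14 was the single call in MK2-/- against wt (-0.87, 0.0457), where 11.6% of all genes were called. These ligands were named for the genotype comparisons after their values were seen.

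**Figure D4:**
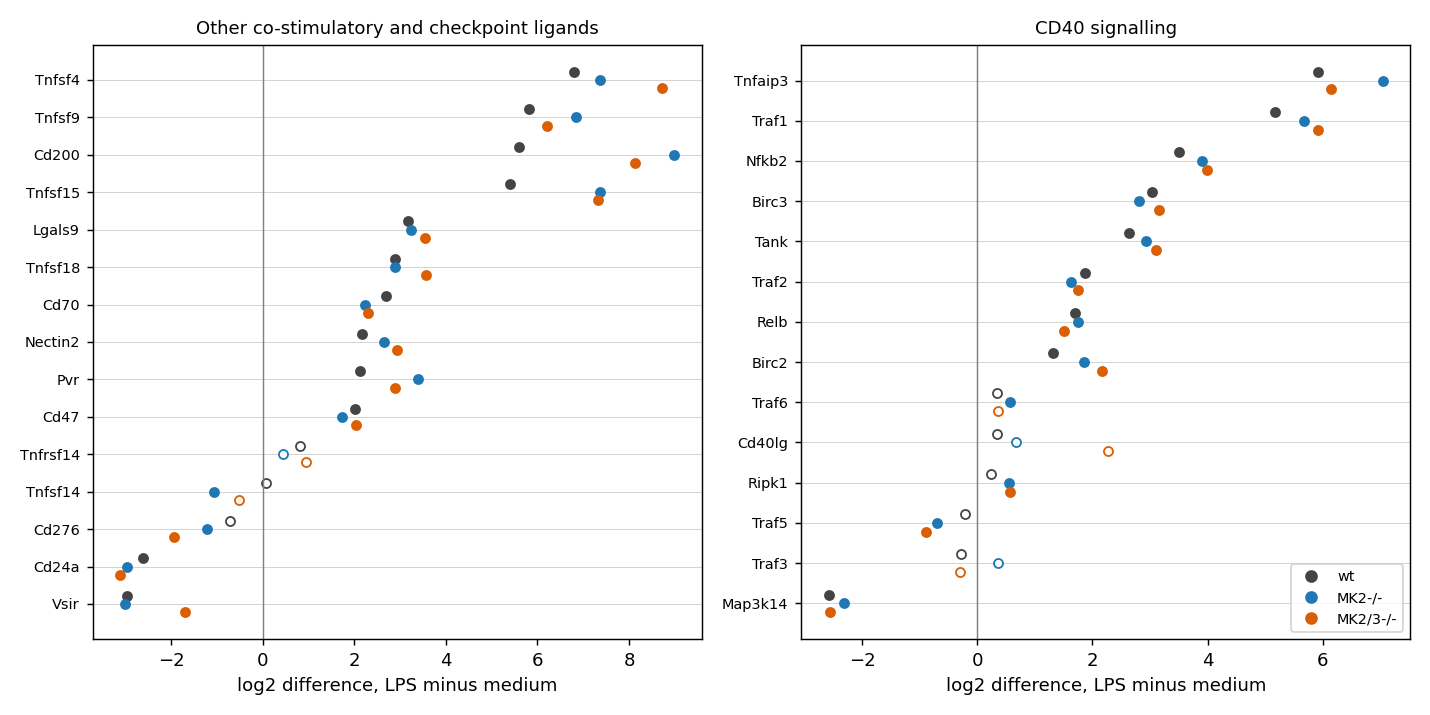
Difference between LPS and medium (x axis, log2) for the 15 other ligands (left) and the 14 CD40 signalling genes (right), 1 gene per line, in wt (grey), MK2-/- (blue) and MK2/3-/- (orange). Filled points passed the test, and fitted values are drawn also where medium arrays were not measurable. In wt the ligands run from Vsir at -2.96 to Tnfsf4 at 6.81, and the signalling genes from Map3k14 at -2.58 to Tnfaip3 at 5.91.

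In the SLAM family and its adaptors, with Slamf1 left out, 3 of 9 rose and 2 fell in wt and in MK2-/-, and 2 rose and 2 fell in MK2/3-/-, with medians of 0.33, 0.24 and 0.34. With 9 genes nothing particular to the family was read from these counts beside the shares over all genes, 18.6% higher and 23.2% lower in wt, 17.7% and 26.7% in MK2-/- and 20.3% and 27.5% in MK2/3-/-. Slamf7 rose by 4.72 in wt (adjusted p = 5.9e-09), Slamf8 by 2.51 (0.00235) and Slamf9 by 1.21 (0.00583), whereas Sh2d1b1, encoding the SLAM-family adaptor EAT-2, fell by 4.51 (7.06e-07) and Cd84 by 1.88 (2.14e-05). Slamf6, named after its value was seen, was lower in MK2-/- than in wt under LPS by 0.83 (0.0153). It was the single call of the 9 there, where 11.6% of all genes were called. In MK2/3-/- against MK2-/- under LPS, 2 of the 9 were higher and 1 lower, where 13.8% of all genes were called. In medium 1 was lower in MK2-/- than in wt, where 8.57% of all genes were called. There 1 was higher in MK2/3-/- than in MK2-/- (background 2.82%). Of 7 TIM and CD200 receptor genes besides Havcr2 and Cd200r1, 5 rose and 1 fell in each genotype. The medians were 1.79, 1.95 and 1.99, or 1.33, 1.59 and 1.44 with genes at their bound. Timd4, a phosphatidylserine receptor, rose by 3.01 in wt (0.00325) with 1 of 4 medium arrays measurable, Cd300a by 1.89 (0.00886), and Havcr1 was at least 2.53-fold higher (9.59e-05), while Cd300lf fell by 4.32 (1.88e-06). Havcr2 thus fell where Timd4 and Havcr1 of the same family rose.

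Among signalling partners of CD40, members of the TRAF and non-canonical NF-kB branches were tested. Of 14 tested, 8 rose, 1 fell and 5 did not pass in wt, 10 rose and 2 fell in MK2-/- and 9 rose and 2 fell in MK2/3-/-, with medians of 1.51, 1.70 and 1.96 (1.51, 1.70 and 1.64 with genes at their bound). Tnfaip3, which encodes the NF-kB inhibitor A20, rose by 5.91 in wt (adjusted p = 5.65e-10), Traf1 by 5.18 (5.59e-09) and Nfkb2 by 3.50 (1.18e-09), and Map3k14, the kinase NIK, fell by 2.58 (0.000257). Under LPS, 1 of the 14 was higher and 1 lower in MK2/3-/- than in wt, where 23.7% of all genes were called. These were Birc2 (0.95) and Traf5 (-1.05), both named after their values were seen. Among 8 genes for the T-cell receptors of these ligands, 3 rose and 1 fell in wt. In MK2-/- 2 rose and 1 fell, and in MK2/3-/- 3 rose and 1 fell. The medians were 0.74, 0.66 and 0.68, or 0.55, 0.66 and 0.68 with genes at their bound. Beside both lists stand the shares over all genes, 18.6% higher and 23.2% lower in wt. They were 17.7% and 26.7% in MK2-/- and 20.3% and 27.5% in MK2/3-/-. With 8 genes nothing particular to the T-cell receptors was read from their counts. Lag3 was at least 6.69-fold higher in wt (1.26e-06), at least 8.91-fold in MK2-/- and at least 29.3-fold in MK2/3-/-, Tnfrsf9 rose by 3.53 (1.04e-07), and Cd28 fell by 3.76 in wt (3.15e-05). Lag3 was measurable on no medium array. It entered the test through its LPS arrays, so its rises carry no weight in these counts. None of these genes was called in an interaction. Without wt medium replicate 4, 1 CD40 signalling gene rather than 2 fell in MK2-/-, and the same held without the arrays of low Y-linked signal.

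The tested genes most like the members other than Pdcd1lg2, by the root mean square difference over the 6 group means after centring each gene on 0, are given as a description across 6 group means. For Cd40 they were Ccl12 (0.323) and Mmp13 (0.358), for Cd274 Hamp (0.092) and Ifit1 (0.121), for Cd86 Plaur (0.136) and Kcna3 (0.155), for Icosl Hmgn3 (0.101) and Sbds (0.121), and for Cd83 Lacc1 (0.359) and H2ap (0.384). The falling patterns were closest to Pde3b (0.147) and Mbp (0.162) for the brighter Cd80 probe, Sntb2 (0.096) and Phf2 (0.097) for Cd200r1, and Rpain and Zfp551 (0.137 each) for Havcr2. Slamf1 was nearest to Vgf (0.380) and Slfn4 (0.425). Distances are in log2 units, and flat or weakly changing genes have small distances by construction.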

How the data were processed

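RNA of 22 BMDM samples was hybridised by the authors to Agilent SurePrint G3 mouse arrays, and the deposited scanner files hold processed Cy3 intensity per spot (Feature Extraction 11.0.1.1 per the file headers). The authors' deposited value table holds log2 values, quantile normalised and centred per probe, and was used as an alternative. Groups and replicates came from the labels; the methods speak of independent experiments.

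The 10 genes and all lists were chosen with earlier results of these data known. Spots of a probe were averaged after 3671 control spots and spots that failed the scanner's outlier filter were left out (115 to 2927 per array), and log2 intensities were quantile normalised over the 22 arrays. Probes with a RefSeq or GenBank accession and whose signal passed the scanner's background test on 3 or more arrays entered (28103), and the brightest probe stood for each of 22383 genes. Names came from the RefSeq table of GRCm38.p6. A linear model of 6 group means was fitted with limma 3.58.1 in R 4.3.3, with eBayes and Benjamini-Hochberg adjustment, and tested on simulated data. Similarity was measured over group means of named genes. Intensities carry no counting depth, so the number of arrays limits the precision; no spot was saturated, and 61.7% to 83% of probes were well above background per array.

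All 10 members were named; of each list, up to 3 genes with the largest rise and 3 with the largest fall in wt among those called, and genes called in an interaction; for each member, the 2 most similar genes, which for Pdcd1lg2 are not reported here. Alternatives were 75th percentile scaling, normexp (offset 50) on the median signal, since the files hold no mean signal, the authors' value table, no filter, a filter at 11 arrays, the probe with the largest rise in wt as in the methods, all kept probes, the compared groups only, array weights, the methods' t-test, replicate blocks, each array left out, and arrays with low Y-linked signal left out. List counts without wt medium replicate 4 and without those arrays were added after seeing the data.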

Additional observations from a re-analysis of the deposited data

Results flagged for a closer look

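Within the 43 groups of 4 arrays tested per probe, a gap of the extreme array from its nearest neighbour above Dixon's 95% critical value, as a share of the group's range, was found 3 times, each in MK2-/- medium replicate 2, and chance alone gives such a gap in about 1 in 20 groups. Cd274 was lowest there, at 6.99 against 8.34 to 8.44 on the other arrays (gap 0.932 of the range). Havcr2 was lowest there too, at 10.25 against 10.88 to 11.00 (0.84). Slamf1 was highest there, at 3.07 against 2.01 to 2.03 (0.979), and no array of that group measured it above background.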

How the results depend on the processing

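Over 162 alternative counts of called genes for the 12 comparisons, 149 were within 1.5 times the reported count. Cd80 reversed with the probe of the largest rise in wt, to 1.84 in wt, 2.32 in MK2-/- and 2.80 in MK2/3-/-. With array weights 1 gene was called in MK2-/- against wt under LPS, in place of 0. In MK2/3-/- against wt under LPS, reported as 3, the compared groups alone gave 1, array weights 1 and the methods' t-test after adjustment 0. In MK2/3-/- against MK2-/- under LPS, reported as 0, the compared groups alone gave 1 (Cd83). There the methods' t-test gave 3 unadjusted (Cd40, Icosl and Cd83) and 1 adjusted (Cd83). In MK2-/- against wt in medium, reported as 1, 75th percentile scaling gave 2, and the compared groups alone, the methods' t-test with or without adjustment and leaving out the arrays of low Y-linked signal gave 0. In MK2/3-/- against wt in medium 75th percentile scaling gave 1 in place of 0. Leaving out each array in turn gave 8 to 9 calls for LPS in wt, 0 to 4 in MK2/3-/- against wt under LPS and 0 to 1 in MK2-/- against wt in medium, and the reported count in all other comparisons. Adjusted p over the alternatives ran from 0.00273 to 0.104 for Cd83, 0.00694 to 0.187 for Icosl, 0.0124 to 0.21 for Cd80, 0.0281 to 0.225 for Cd86 and 0.0192 to 0.98 for Pdcd1lg2 in MK2/3-/- against wt under LPS, from 0.0146 to 0.268 for Cd40 in MK2-/- against wt in medium, and with LPS from 0.00075 to 0.0834 for Cd200r1 in wt and 0.00025 to 0.101 for Havcr2 in MK2-/-. The cause of these changes was not tested. The fitted Slamf1 rise in wt ran from 4.38 with normexp to 8.37 without wt medium replicate 4. The methods' t-test gives no interaction.

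Samples with the same replicate number deviated together (correlation over 0.1) in 7 of 10 pairs (-0.086 to 0.363). Those with the same letter in the array names did so in 7 of 10 pairs (-0.086 to 0.418). Labelled ages differed within the number pairs of wt and MK2/3-/- replicate 3, and were equal within every letter pair. The MK2-/- replicate 3 arrays, paired both ways, shared the low Y-linked signal. The labels gave no pairing, it was not established here, and the main tests were unpaired. With a replicate block (estimated correlation 0.117) the counts were 9, 9 and 9 for LPS in wt, MK2-/- and MK2/3-/-, 3 in MK2/3-/- against wt under LPS, 1 in MK2-/- against wt in medium and 0 elsewhere, all as reported; by the letter in the array names (0.143) the only difference was 4 in place of 3. Over all genes the block moved the interaction calls from 0 to 0, from 146 to 327 and from 12 to 22.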
